A study of Mus musculus with 14 samples.

Results

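The 9 genes described here belong to the bone morphogenetic protein (BMP) pathway: the ligand genes Bmp2, Bmp4 and Bmp7, the modulators Bmper, Bambi and Smad6, and the inhibitor of DNA binding (ID) genes Id1, Id2 and Id3. They were taken by gene symbol from the 23174 rows of the deposited expression table, and each symbol matched 1 row. Across the change of mouse embryonic stem cells (ESCs) into extraembryonic endoderm (XEN) cells, the 9 genes fell into patterns that differed in stage and in line. Id2, Id3, Smad6 and Bambi were higher after retinoic acid and activin A than in ESCs in all 4 lines, with and without Zfp281. Bmp2 and Bmper were also higher then in all 4 lines, yet at most 3.47 FPKM up to that stage. They reached 43.7 to 136.6 FPKM at passage 3 in the lines without Zfp281, while Bmp7 was lower there than in the lines with Zfp281. In the established XEN lines, Bmp2 and Bmper were at 18.0 to 105.8 FPKM, Bmp7 was listed at 0, and Bmp4 was lower than in ESCs.

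BMPs are secreted ligands of the TGF-beta superfamily. They bind pairs of serine/threonine kinase receptors at the cell surface, and the receptors phosphorylate SMAD proteins that enter the nucleus and bind DNA with SMAD4. The ID genes are among the best known targets of this signal, and Smad6 and Bambi are both targets and inhibitors of it. In ESCs kept in serum and leukemia inhibitory factor (LIF), BMP signalling and the ID proteins are known to help hold back differentiation, and BMP signals also act in the extraembryonic endoderm of the early embryo, where they bear on visceral and parietal endoderm.

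The series asks whether Zfp281, a zinc finger transcription factor, is a barrier to this differentiation. Polyadenylated RNA was sequenced in 14 libraries, 1 for each line and stage, with read pairs of 150 bp. A wild-type ESC line (3WT), a pair of Zfp281 null lines (3.34Null and 2.6Null, together the knockout or KO lines) and the 3.34Null line with Zfp281 put back (3.34Null-Rescue) were each sampled at 3 stages. All 4 are feeder-free lines of the 129S1/SVImJ background. The ESC stage is growth on gelatin in serum and LIF. Passage 1 (cXENp1) was taken after 48 hours in XEN medium with 10 ng/mL activin A and 0.01 µM retinoic acid, and passage 3 (cXENp3) follows a passage on immortalized mouse embryonic fibroblast feeders and a return to gelatin. The established XEN lines XENB1 (background given as 129S1) and XEN5 (129S1/SVImJ) are labelled wild type, were grown in XEN medium conditioned by fibroblasts, and gave 1 library each. 3WT and 3.34Null-Rescue are together called the Zfp281-present lines. By its name 3.34Null-Rescue descends from 3.34Null, so these 2 are not independent lines. The title and the cell line field of the second null line give different numbers (2.6 and 2.26), and the labels do not say how the lines were derived. Replicates are therefore lines. Where a fit has no term for line, a p-value rests on the spread between these few lines within groups, pooled over the groups. Libraries of a line are then taken as independent. Where each line has its own term (line as a block), a p-value rests on how far the lines differ in their changes between stages.

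Values are FPKM, which corrects the fragments of a gene for its length and for the library total, so levels of different genes may be set side by side. Changes were fitted with limma on log2(FPKM + 1), a scale on which genes near 0 change less than their ratio. A gene is called here at a Benjamini-Hochberg adjusted p under 0.05 over all genes tested, and every adjusted p below is from limma. The table holds no read counts, so depth and detection limits are unknown. The library sums of FPKM ran from 424406 to 718138, and 14972 to 16831 genes were above 0.

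Zfp281 itself checks the labels. It was at 28.5, 25.1 and 34.0 FPKM in 3WT and at 27.7, 27.2 and 38.6 FPKM in 3.34Null-Rescue at ESC, cXENp1 and cXENp3. 3.34Null had 3.92, 1.29 and 3.96 FPKM, and 2.6Null was listed at 0 at the first 2 stages and had 0.559 FPKM at the third. XENB1 and XEN5 had 10.6 and 12.5 FPKM.

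The ESC library of 2.6Null stood apart from the other ESC libraries. All 14 XEN marker genes reached 1 FPKM in it, against 7 or 8 in the other 3, and their summed level was 650.8 FPKM against 216.9 to 234.6. Its pluripotency markers summed to 3131 FPKM against 3843 to 4056. It is also the only ESC library whose description has the prefix XH, while the other 3 have JH. The comparisons with ESCs given for Bmp4, Bmp7 and Id1 are also given without it. A fit with the prefix as a term leaves 2.6Null to set the ESC level, and its values are given where it changed the call of a comparison with ESCs. Of the XEN markers, Lama1, Lamc1, Col4a1, Col4a2 and Sparc stand at 0 in the table in both XEN lines and, at cXENp3, in both KO lines, where the other 9 reached 1 FPKM. An exact 0 in this table can be a failed estimate, so a gene is said to be listed at 0 and not to be absent.

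At passage 1, 4 of the 9 genes were called against ESC in the fit with line as a block, all 4 of them higher, where 14.7% of all 13191 genes tested were called higher and 13.8% lower. Between KO and Zfp281-present lines, 0 of 9 were called in ESCs, where 1.97% of all genes were called either way. At cXENp1 it was again 0 of 9, where 0.485% of all genes were called. In each of these 2 comparisons 1 of 9 had an unadjusted p under 0.05 in limma (Id2 in ESCs and Bmp2 at cXENp1), as did 20.9% and 11.3% of all genes. At cXENp3, 2 of 9 were called higher in KO (22.9% of all genes) and 1 was called lower (19% of all genes). From cXENp1 to cXENp3 within the KO lines, 2 were called higher (12.5% of all genes) and 2 lower (8.8%). Over the same step in the Zfp281-present lines, 3 were called lower (6.01% of all genes) and 0 higher (4.91%), with 0 higher in limma at an unadjusted p under 0.05 too. The difference between these steps was called for 2 genes, both with the greater rise in KO (7.19% of all genes). In the XEN lines against ESC, 4 of 9 were called higher (22.2% of 12372 genes) and 2 lower (19.7%), of which Bmp7 rests on values listed at 0. Of those called higher, Bmp2 and Bmper were under 1 FPKM in every ESC library and were tested only because the XEN libraries reached it. KO lines at cXENp3 against XEN lines gave 1 called gene, which was higher (2.64% of 13386 genes).

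**Figure D1:**
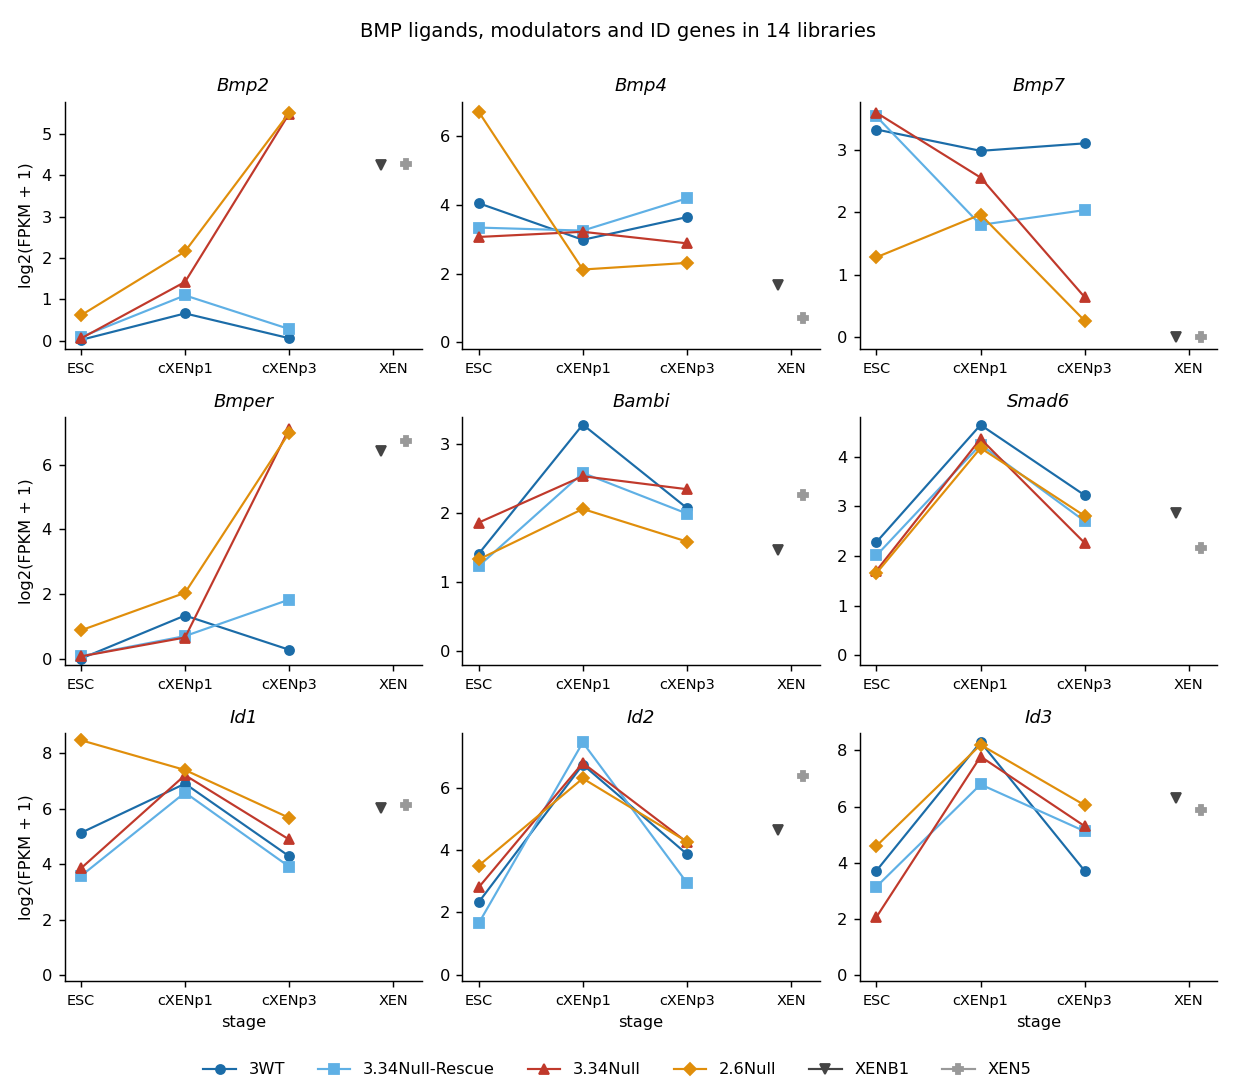
Level of each of the 9 genes as log2(FPKM + 1) (vertical axis) by stage (horizontal axis), 1 point per library, with lines joining the 3 stages of a cell line and single points for XENB1 and XEN5. Bmp2 and Bmper part by Zfp281 at cXENp3, where the KO lines are at 43.7 FPKM or more, whereas Id2, Id3 and Smad6 peak at cXENp1 in all 4 lines.

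Bmp2 (XLOC_011261, mm9 chromosome 2, 133378935 to 133388621) encodes a ligand of the type I receptors BMPR1A and BMPR1B. It had 0.0163 FPKM in 3WT, 0.0678 in 3.34Null-Rescue, 0.0412 in 3.34Null and 0.533 in 2.6Null as ESCs. At cXENp1 it had 0.584, 1.14, 1.68 and 3.47 FPKM in the same order. Each line was thus higher at cXENp1 than as ESCs, and all 4 cXENp1 libraries lay above all 4 ESC libraries. The fitted difference of 1.14 on the log2 scale (SE 0.91) was not called (adjusted p 0.367), in a fit whose spread also takes in the cXENp3 libraries.

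At cXENp3 Bmp2 had 0.0461 FPKM in 3WT and 0.220 FPKM in 3.34Null-Rescue. 3.34Null had 43.7 FPKM and 2.6Null had 44.3 FPKM, so the groups were far apart and the 2 KO lines nearly level. The KO lines exceeded the Zfp281-present lines by 5.32 on the log2 scale (SE 0.31, adjusted p 1.16e-05). Within 3.34Null the level rose 26.0-fold from cXENp1 to cXENp3, and within 2.6Null it rose 12.8-fold; the fitted log2 rise over both was 3.70 (SE 0.31, adjusted p 7.33e-05). In 3WT the level at cXENp1 was 12.7-fold that at cXENp3, and in 3.34Null-Rescue it was 5.19-fold, a difference that was not called (adjusted p 0.162). The change in KO minus the change in the Zfp281-present lines was 4.41 (SE 0.43, adjusted p 7.25e-04). Without 3WT that difference was 4.51 and not called (adjusted p 0.0827), with 3.34Null-Rescue as the lone Zfp281-present line.

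XENB1 and XEN5 had 18.0 and 18.4 FPKM of Bmp2, above every ESC library. The XEN lines exceeded ESCs by 4.07 on the log2 scale (SE 0.26, adjusted p 3.36e-05), and by 6.49 with a pseudocount of 0.1. Every ESC library was under 1 FPKM, so Bmp2 entered this test only through the XEN libraries, where it was high. With XENB1 or XEN5 left out it was no longer tested, so the p-value adds no support beyond the levels. Both KO libraries at cXENp3 in turn lay above both XEN lines, by 1.23 on the log2 scale (SE 0.30, adjusted p 0.0433). That call was lost without any 1 of the 4 libraries compared (adjusted p 0.0915 to 0.168) and under several other settings. By level, Bmp2 was thus lowest in ESCs and in the Zfp281-present lines at cXENp3, whose ranges overlapped, higher at cXENp1, higher again in XEN lines, and highest in KO lines at cXENp3.

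Bmp4 (XLOC_006275, chromosome 14, 46999199 to 47010274) encodes the ligand through which BMP is best known to act in ESC culture and in the epiblast. As ESCs it had 15.5 FPKM in 3WT, 9.11 in 3.34Null-Rescue, 7.36 in 3.34Null and 103.2 in 2.6Null. The cXENp1 values were 6.90, 8.51, 8.28 and 3.34 FPKM. Only the ESC library of 2.6Null lay above 17.2 FPKM in the whole series. Neither the KO difference in ESCs (log2 1.19, SE 0.90, adjusted p 0.498) nor the cXENp1 difference from ESC (log2 −1.40, SE 0.75, adjusted p 0.186) was called. The KO difference in ESCs was −0.63 without the 2.6Null library and 3.01 without the 3.34Null line (adjusted p 0.00765), so the 2 KO lines did not move together. The cXENp1 difference was −0.33 without 2.6Null (adjusted p 0.471), and with the prefix as a term it was −4.67 and called (adjusted p 0.00836).

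At cXENp3 Bmp4 had 11.5 FPKM in 3WT and 17.2 FPKM in 3.34Null-Rescue, against 6.36 FPKM in 3.34Null and 3.96 FPKM in 2.6Null. Both KO values were the lower ones, but the difference of −1.32 (SE 0.90) was not called (adjusted p 0.265). Leaving out 3.34Null gave −1.61 and a call (adjusted p 0.0123), and the prefix term gave a call at the same difference (adjusted p 0.0263). XENB1 had 2.16 FPKM and XEN5 had 0.630 FPKM, both below all ESC libraries, and Bmp4 fell by 3.11 on the log2 scale from ESC to XEN (SE 0.94, adjusted p 0.0306). The call was lost without XENB1 (adjusted p 0.0918), without XEN5 (adjusted p 0.184) and with no filter on low values (adjusted p 0.0682). The difference was −2.30 without the ESC library of 2.6Null (adjusted p 0.00287) and −5.52 with the prefix as a term (adjusted p 6.01e-04). In order of level the XEN lines were lowest, the KO lines at cXENp3 overlapped with cXENp1, and the Zfp281-present lines at cXENp3 overlapped with ESCs.

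Bmp7 (XLOC_012480, chromosome 2, 172695189 to 172765794) encodes a ligand of another BMP subgroup that can pair with BMP2 or BMP4 in heterodimers. As ESCs it had 9.06 FPKM in 3WT, 10.6 in 3.34Null-Rescue, 11.1 in 3.34Null and 1.42 in 2.6Null. Passage 1 gave 6.93, 2.48, 4.89 and 2.90 FPKM, and at cXENp3 7.62, 3.10, 0.554 and 0.196 FPKM. Both XEN lines are listed at 0. The ESC library of 2.6Null was the one low ESC library, and the 2 KO libraries at cXENp3 were the lowest of the course.

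At cXENp3 the KO lines were lower in Bmp7 by a log2 difference of −2.13 (SE 0.68, adjusted p 0.0311). The call was lost without 3WT (−1.59, adjusted p 0.262), without 3.34Null-Rescue (−2.66, adjusted p 0.0628) and with no filter on low values (adjusted p 0.065), and with a pseudocount of 0.1 the difference was −3.50 (adjusted p 0.0108). 3.34Null had 8.82-fold more Bmp7 at cXENp1 than at cXENp3, and 2.6Null had 14.8-fold more. This step, a log2 difference of −1.81, was not called without a line block (adjusted p 0.0869) and was called with line as a block (SE 0.51, adjusted p 0.0376). The test of XEN lines against ESCs takes the 0s of both XEN libraries as levels. They are listed at 0 as the 5 XEN markers above are, so low Bmp7 and a failed estimate cannot be told apart there and no fold is given. The test gave a call (adjusted p 0.00786), also without the ESC library of 2.6Null (adjusted p 4.19e-05) and with the prefix as a term (adjusted p 0.0163), and none without XENB1 (adjusted p 0.0595) or XEN5 (adjusted p 0.0617). At cXENp3, where all 4 libraries were above 0, Bmp7 was lower in the KO lines and Bmp2 was higher.

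Among these 3 ligand genes, the gene with the largest share of their summed level differed between groups. Bmp2, Bmp4 and Bmp7 summed to 18.5 to 24.6 FPKM in the ESC libraries other than 2.6Null, which had 105.2 FPKM. The sum was 9.71 to 14.9 FPKM at cXENp1, 19.2 and 20.6 FPKM in 3WT and 3.34Null-Rescue at cXENp3, and 50.6 and 48.4 FPKM in 3.34Null and 2.6Null at cXENp3. The XEN lines, at 20.1 and 19.1 FPKM, were close to the Zfp281-present lines in this sum but not in its makeup. Bmp2 made up 86.4% and 91.4% of the sum in 3.34Null and 2.6Null at cXENp3, and 89.3% and 96.7% in XENB1 and XEN5, with Bmp7 counted there as 0. In 3WT and 3.34Null-Rescue at cXENp3 it made up 0.241% and 1.07%, and Bmp4 made up 60.0% and 83.8%. At cXENp1 the Bmp2 share was 4.05% in 3WT, 9.41% in 3.34Null-Rescue, 11.3% in 3.34Null and 35.7% in 2.6Null. The sum leaves out other ligand genes such as Bmp6. At cXENp3 Bmp6 had 13.2 and 36.3 FPKM in 3.34Null and 2.6Null, and 0.675 and 0.4995 FPKM in 3WT and 3.34Null-Rescue. XENB1 and XEN5 had 18.6 and 8.67 FPKM of it. The shares are thus of the 3 genes and not of all BMP ligand transcripts. In bulk RNA, fewer cells of a type and less RNA per cell cannot be told apart, so these shares describe the culture and not a cell.

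**Figure D2:**
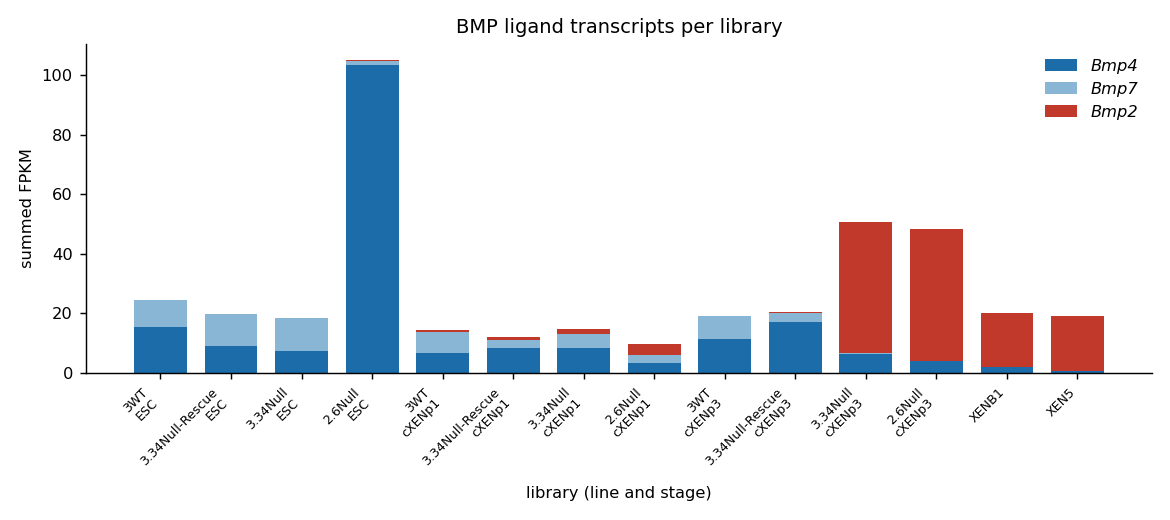
Summed FPKM of Bmp4, Bmp7 and Bmp2 (vertical axis, stacked bars) in each of the 14 libraries (horizontal axis). Bmp4 dominates the bar of 2.6Null as ESCs at 103.2 FPKM, and Bmp2 makes up 86.4% or more of the bars of the KO lines at cXENp3 and of the XEN lines.

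Bmper (XLOC_020857, chromosome 9, 23027520 to 23289646) encodes a secreted BMP-binding protein with cysteine-rich domains that can hold back or help BMP signals according to context. As ESCs it was listed at 0 in 3WT and had 0.0549 FPKM in 3.34Null-Rescue, 0.0498 in 3.34Null and 0.833 in 2.6Null. Passage 1 gave 1.52, 0.622, 0.572 and 3.10 FPKM. These 8 libraries were low, and 2.6Null was the highest of each stage. Each of the 4 lines was higher at cXENp1 than as ESCs. The fitted difference was not called (log2 0.93, SE 1.11, adjusted p 0.554), in a fit whose spread also takes in the cXENp3 libraries.

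At cXENp3 Bmper had 0.210 FPKM in 3WT and 2.54 FPKM in 3.34Null-Rescue, against 136.6 FPKM in 3.34Null and 125.6 FPKM in 2.6Null. The groups did not overlap, and the 2 KO libraries were the highest of the 14. KO exceeded Zfp281-present lines by 5.99 on the log2 scale (SE 0.56, adjusted p 1.27e-04). Within the KO lines Bmper rose by 5.70 from cXENp1 to cXENp3 (SE 0.56, adjusted p 1.83e-04), while the Zfp281-present lines differed by 0.03 (SE 0.56, adjusted p 0.979), with 3WT lower and 3.34Null-Rescue higher at cXENp3. The difference of the 2 changes was 5.67 (SE 0.79, adjusted p 0.00477), and without 3WT it was 4.57 and not called (adjusted p 0.138).

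XENB1 had 84.2 FPKM of Bmper and XEN5 had 105.8 FPKM, and they exceeded ESCs by 6.32 on the log2 scale (SE 0.33, adjusted p 1.63e-05). As with Bmp2, every ESC library was under 1 FPKM, so Bmper entered this test only through the XEN libraries. With either of these left out it was no longer tested, and the p-value adds no support beyond the levels. Both KO libraries at cXENp3 were above both XEN lines, and the difference of 0.47 was not called (95% interval −0.71 to 1.64, adjusted p 0.682). By level, ESCs, cXENp1 and the Zfp281-present lines at cXENp3 overlapped at the low end, with XEN lines and then KO lines at cXENp3 above. Pearson's r of the 2 genes' log2 levels was 0.968 over the 14 libraries, a description that rests on the same libraries being high.

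Bmper was not the only secreted BMP modulator with this profile. Among 15 other extracellular antagonists and modulators, 11 passed the filter on low values, and 4 were called at cXENp3 between KO and Zfp281-present lines, all 4 higher in KO (22.9% of all genes): Fst, Crim1, Nog and Grem1. Noggin, gremlin 1 and follistatin bind ligands of the superfamily outside the cell, follistatin being best known as a trap for activin; CRIM1 is a membrane protein that binds BMPs. The median log2 difference over the 11 was 0.81, against 0.01 over all genes.

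Fst (XLOC_005707) had 0.853 FPKM in 3WT and 4.25 FPKM in 3.34Null-Rescue at cXENp3, against 405.1 FPKM in 3.34Null and 400.6 FPKM in 2.6Null, a log2 difference of 7.02 (SE 0.42, adjusted p 1.16e-05). Crim1 (XLOC_008661) had 2.08 and 11.9 FPKM against 133.9 and 298.6 FPKM (log2 5.00, SE 0.70, adjusted p 7.38e-04). In both genes the KO libraries lay above both Zfp281-present ones, and 3.34Null-Rescue lay above 3WT. The summed level of Bmper, Fst, Nog, Grem1 and Crim1 was 1.63 to 5.73 FPKM in ESCs and 11.66 to 39.2 FPKM at cXENp1. At cXENp3 it was 4.30 FPKM in 3WT, 20.9 in 3.34Null-Rescue, 726.5 in 3.34Null and 924.0 in 2.6Null, and the XEN lines had 689.8 and 762.3 FPKM. These 5 genes were put together after their values were seen.

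Markers of feeder fibroblasts had another order over the cXENp3 libraries than these genes. Their sum over 12 genes at cXENp3 was 40.6 FPKM in 3WT, 1346 in 3.34Null-Rescue, 317.3 in 3.34Null and 412.3 in 2.6Null, with 6, 12, 11 and 11 of the 12 at 1 FPKM or more. In the XEN lines the sum was 724.1 and 621.3 FPKM, with 11 and 12 of 12. 3.34Null-Rescue thus had the highest feeder marker sum of the 14 libraries beside 2.54 FPKM of Bmper. Markers of parietal endoderm, a list of 6 that includes Fst, summed to 2181 and 1991 FPKM in 3.34Null and 2.6Null at cXENp3 and to 1084 and 2251 FPKM in the XEN lines, against 9.88 in 3WT and 40.4 in 3.34Null-Rescue. With the 5 genes above counted as 0, the XEN list summed to 4146 and 2931 FPKM in 3.34Null and 2.6Null at cXENp3 against 317.6 in 3WT and 844.9 in 3.34Null-Rescue, and the pluripotency list to 725.5 and 329.7 FPKM against 4242 and 2429 FPKM. The KO cultures thus had more XEN and less pluripotency marker RNA at the stage where Bmp2 and Bmper were high and Bmp7 was low. At cXENp1 the XEN list, with no gene at 0, summed to 3255 FPKM in 2.6Null and to 425.9 to 536.6 FPKM in the other lines. The pluripotency list summed to 124.9 to 160.7 FPKM at cXENp1, where Bmp2 and Bmper were at most 3.47 FPKM.

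Lists of other cell types also differed at cXENp3, at lower levels. Visceral endoderm markers summed to 29.7 and 18.6 FPKM in 3.34Null and 2.6Null against 2.23 and 1.495 FPKM in 3WT and 3.34Null-Rescue, with 3 of 7 at 1 FPKM or more in each KO library and 0 in the others. Mesoderm markers, a list that includes the BMP target Msx2, summed to 25.0 and 30.1 FPKM against 8.79 and 18.0 FPKM. Msx2 alone had 13.8 and 12.2 FPKM against 2.22 and 4.47 FPKM. Endothelium markers summed to 42.7 and 105.1 FPKM against 32.1 and 18.4 FPKM. Trophoblast markers were lower in KO, at 7.95 and 17.4 FPKM against 36.6 and 24.1 FPKM. The part of any of these cell types, or of feeder cells, in the Bmper, Bmp2 and Bmp7 results was not tested.

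**Figure D3:**
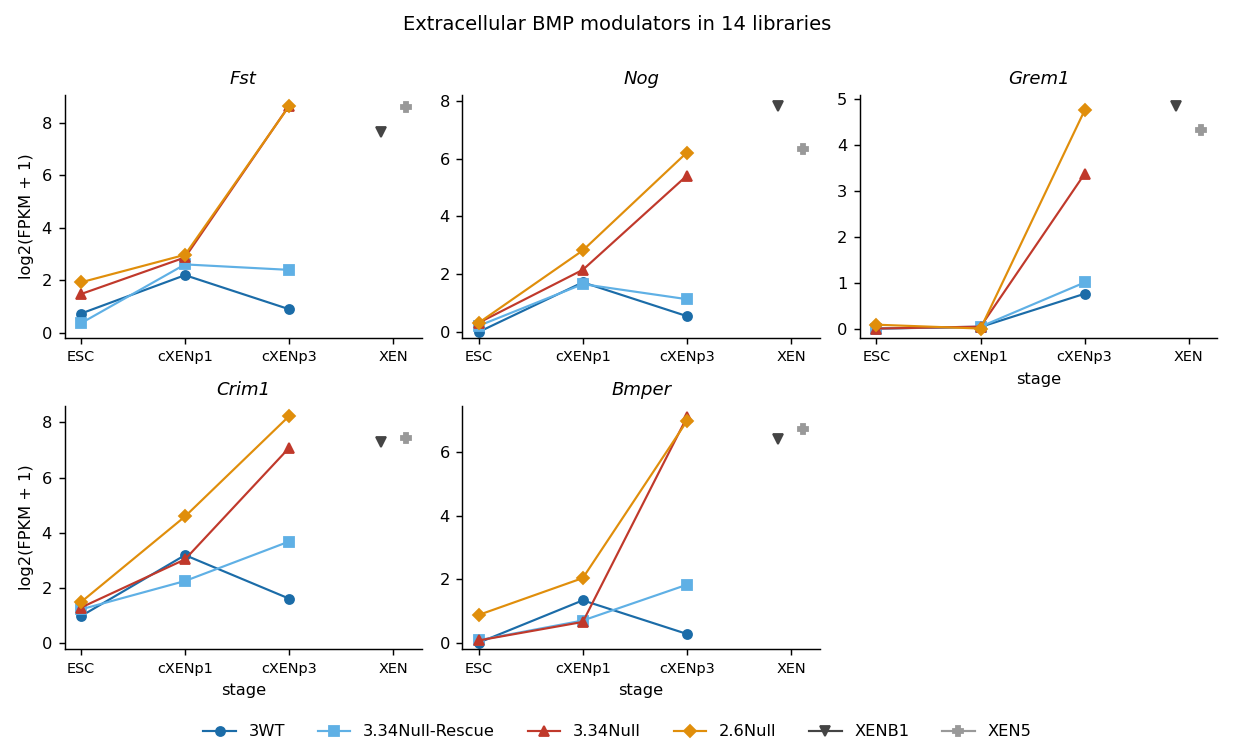
Level of 5 secreted or membrane-bound BMP modulators as log2(FPKM + 1) (vertical axis) by stage (horizontal axis), 1 point per library, with lines joining the 3 stages of a cell line. In all 5 genes the 2 KO libraries at cXENp3 and the 2 XEN libraries lie above every ESC and cXENp1 library and above 3WT and 3.34Null-Rescue at cXENp3.

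Bambi (XLOC_009269, chromosome 18, 3507955 to 3516402) encodes a membrane pseudoreceptor that resembles a type I receptor without the kinase domain and dampens signals of the superfamily. As ESCs it had 1.66 FPKM in 3WT, 1.35 in 3.34Null-Rescue, 2.64 in 3.34Null and 1.52 in 2.6Null. At cXENp1 it had 8.74, 4.99, 4.80 and 3.18 FPKM, all above the ESC libraries. The rise was 1.16 on the log2 scale (SE 0.24, adjusted p 0.00916), and it was not called without 3WT (0.92, adjusted p 0.0504), without 3.34Null-Rescue (1.09, adjusted p 0.0716) or with the prefix as a term (0.80, adjusted p 0.227). At cXENp3 the levels were 3.21, 2.99, 4.09 and 2.01 FPKM, with KO and Zfp281-present lines overlapping (log2 −0.07, SE 0.35, adjusted p 0.894). XENB1 and XEN5 had 1.76 and 3.78 FPKM, which overlapped with ESCs (log2 0.40, SE 0.32, adjusted p 0.341). By level, ESC, XEN and cXENp3 libraries overlapped, and cXENp1 overlapped with cXENp3. The table also lists the processed pseudogene Bambi-ps1, so reads could have been split between the copies and these values are uncertain.

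Smad6 (XLOC_021777, chromosome 9, 63800883 to 63869866) encodes an inhibitory SMAD that competes with the receptor-activated SMADs of the BMP branch. As ESCs it had 3.86 FPKM in 3WT, 3.03 in 3.34Null-Rescue, 2.26 in 3.34Null and 2.15 in 2.6Null. At cXENp1 it had 24.0, 18.0, 19.6 and 17.1 FPKM, and at cXENp3 8.36, 5.51, 3.80 and 6.01 FPKM. The 4 cXENp1 libraries were the highest of the 14, at 17.1 FPKM or more against at most 8.36 FPKM in the rest. The lines ran from 2.15 to 3.86 FPKM as ESCs and from 3.80 to 8.36 FPKM at cXENp3. The rise from ESC to cXENp1 was 2.45 on the log2 scale (SE 0.20, adjusted p 1.53e-04) and stood without each line in turn, at 2.37 to 2.52.

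Smad6 then fell by 1.48 in the Zfp281-present lines (SE 0.28, adjusted p 0.00996) and by 1.74 in the KO lines (SE 0.28, adjusted p 0.00239) from cXENp1 to cXENp3. The former was not called without 3WT (adjusted p 0.271) or 3.34Null-Rescue (adjusted p 0.158). The latter was not called without 3.34Null (adjusted p 0.0513), and without 2.6Null it was −2.10 and called (adjusted p 0.0119). The difference of the 2 changes was −0.26 (95% interval −1.13 to 0.62, adjusted p 0.687). The KO difference at cXENp3 was −0.43 (95% interval −1.05 to 0.19, adjusted p 0.241). XENB1 and XEN5 had 6.29 and 3.48 FPKM, overlapping with both the cXENp3 and the ESC libraries.

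Id1 (XLOC_011343, chromosome 2, 152562010 to 152563146), Id2 (XLOC_004543, chromosome 12, 25778664 to 25780957) and Id3 (XLOC_014142, chromosome 4, 135699737 to 135701307) encode helix-loop-helix proteins that lack a DNA-binding region and hold other helix-loop-helix factors off DNA. The promoters of Id2, Id3 and Smad6 are shown because these genes were called higher at cXENp1, and that of Bmper because it was not called there. Bmper was nonetheless higher at cXENp1 than as ESCs in all 4 lines. The sequences are the 250 bases before the RefSeq start on GRCm38.p6, each on its gene's strand. Bambi, also called higher at cXENp1, was left out of the search, and 5 of the other genes were matched (Bmp4 is the one not shown). The build differs from that of the expression table. Capitals mark GGCGCC, which BMP-responsive SMADs are known to bind, and the SMAD-box letters CAGAC or GTCTG. They also mark the TATA letters TATAA or TTATA and the CCAAT-box letters CCAAT or ATTGG. Both strands were searched, and no matches found overlapped. These motifs were chosen after the sequences had been seen.
Id2 promoter, chr12:25096093-25096342, minus strand: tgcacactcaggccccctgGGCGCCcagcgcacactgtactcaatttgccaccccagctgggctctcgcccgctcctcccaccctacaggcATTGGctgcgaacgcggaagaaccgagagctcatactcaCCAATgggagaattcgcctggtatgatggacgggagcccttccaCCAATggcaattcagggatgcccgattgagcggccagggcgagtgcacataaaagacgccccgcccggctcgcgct
Id3 promoter, chr4:136143572-136143821, plus strand: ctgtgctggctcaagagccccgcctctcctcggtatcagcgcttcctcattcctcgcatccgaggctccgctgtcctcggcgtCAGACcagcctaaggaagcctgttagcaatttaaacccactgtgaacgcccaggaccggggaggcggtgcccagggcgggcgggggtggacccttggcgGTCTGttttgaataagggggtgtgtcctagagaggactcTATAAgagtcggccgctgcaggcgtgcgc
Smad6 promoter, chr9:64022060-64022309, minus strand: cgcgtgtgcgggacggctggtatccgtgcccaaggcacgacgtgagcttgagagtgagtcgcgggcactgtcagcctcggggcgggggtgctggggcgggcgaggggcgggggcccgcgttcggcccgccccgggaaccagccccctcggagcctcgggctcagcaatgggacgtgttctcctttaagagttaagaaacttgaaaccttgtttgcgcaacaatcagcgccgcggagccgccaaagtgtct
Bmper promoter, chr9:23222826-23223075, plus strand: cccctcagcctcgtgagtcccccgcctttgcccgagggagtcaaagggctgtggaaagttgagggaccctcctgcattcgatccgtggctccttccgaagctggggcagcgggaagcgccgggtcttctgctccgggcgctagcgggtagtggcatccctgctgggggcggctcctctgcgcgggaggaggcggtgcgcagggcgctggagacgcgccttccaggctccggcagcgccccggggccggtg

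The Id2 promoter holds GGCGCC at 231 to 226 bases before the start and 3 CCAAT-box matches, at 159 to 155, 120 to 116 and 76 to 72. Id3 holds CAGAC at 167 to 163 bases, GTCTG at 68 to 64 and TATAA at 29 to 25 before the start. The windows of Smad6 and Bmper hold none of these letters. Of 32851 promoters of the same length, 9.59% hold GGCGCC, 42.2% hold CAGAC or GTCTG, 22.8% hold TATAA or TTATA, and 33.9% hold CCAAT or ATTGG. The 4 windows were rich in G and C, at 62.8% in Id2 and Id3, 66.8% in Smad6 and 71.6% in Bmper, against a median of 52.4% over all promoters.

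Id2 had 4.03 FPKM in 3WT, 2.15 in 3.34Null-Rescue, 5.999 in 3.34Null and 10.3 in 2.6Null as ESCs. The cXENp1 values were 106.3, 174.7, 110.4 and 77.9 FPKM. All lines were far above their ESC level, from 7.54-fold in 2.6Null to 81.3-fold in 3.34Null-Rescue, and the log2 rise was 4.25 (SE 0.41, adjusted p 3.09e-04). It stood without each line in turn, at 3.74 to 4.74. At cXENp3 the levels were 13.7, 6.76, 18.1 and 18.4 FPKM, below every cXENp1 library.

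From cXENp1 to cXENp3 Id2 fell by 3.69 in the Zfp281-present lines (SE 0.39, adjusted p 7.32e-04) and by 2.29 in the KO lines (SE 0.39, adjusted p 0.00334). The latter was not called without 3.34Null (adjusted p 0.0581). The 2 falls differed by 1.40 (SE 0.55), which was not called (adjusted p 0.115). Both KO libraries were above both Zfp281-present ones in ESCs (log2 1.16, SE 0.39, adjusted p 0.134) and at cXENp3 (log2 0.85, SE 0.39, adjusted p 0.106), and neither difference was called. The XEN lines XENB1 and XEN5 had 24.3 and 81.8 FPKM, above all ESC libraries by 2.94 on the log2 scale (SE 0.60, adjusted p 0.00603), a call lost without XEN5 (2.09, adjusted p 0.0683) and with the prefix as a term (2.01, adjusted p 0.0715). In order, ESC and cXENp3 libraries overlapped, XEN lines were next, and cXENp1 was highest, with XEN5 inside its range.

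Id3 had 12.2 FPKM in 3WT, 7.92 in 3.34Null-Rescue, 3.22 in 3.34Null and 23.4 in 2.6Null as ESCs. After the 48 hours it had 313.3, 109.8, 219.3 and 293.5 FPKM, again above every ESC library. The rise of 4.38 on the log2 scale (SE 0.50, adjusted p 6.35e-04) stood without each line in turn, at 3.93 to 4.64, and with the prefix as a term it was 3.88 and not called (adjusted p 0.059). At cXENp3 the levels were 12.2, 34.0, 38.6 and 65.5 FPKM: 3WT was back at its ESC level, while the other 3 lines stayed above theirs.

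From cXENp1 to cXENp3 Id3 fell by 3.12 in the Zfp281-present lines (SE 0.78, adjusted p 0.0319), with 4.58 in 3WT and 1.66 in 3.34Null-Rescue. That call was lost without either line (adjusted p 0.845 without 3WT and 0.0760 without 3.34Null-Rescue) and with no filter on low values (adjusted p 0.0623). In the KO lines the log2 difference of −2.31 (SE 0.78) was not called (adjusted p 0.0609), and it was called with line as a block (SE 0.68, adjusted p 0.0433). KO libraries were above Zfp281-present ones at cXENp3, yet the difference of 1.26 (95% interval −0.48 to 3.00) was not called (adjusted p 0.22). In XENB1 and XEN5 it was at 77.9 and 58.5 FPKM, above all ESC libraries by 2.71 on the log2 scale (SE 0.61, adjusted p 0.00915), a call lost without XENB1 (adjusted p 0.0785), without XEN5 (adjusted p 0.0541) and with the prefix as a term (1.49, adjusted p 0.104). By level, ESC and cXENp3 libraries overlapped, XEN lines overlapped with 2.6Null at cXENp3, and cXENp1 was highest.

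Id1 had 34.1 FPKM in 3WT, 10.97 in 3.34Null-Rescue and 13.5 in 3.34Null as ESCs, and 353.5 FPKM in 2.6Null, the highest Id1 value of the 14 libraries. At cXENp1 it had 118.8, 94.9, 147.2 and 167.5 FPKM in 3WT, 3.34Null-Rescue, 3.34Null and 2.6Null. 3WT, 3.34Null-Rescue and 3.34Null were thus higher than as ESCs, by 1.77, 3.00 and 3.36 on the log2 scale, and 2.6Null was lower, at −1.07. Over the 4 lines the difference of 1.76 (SE 0.62) was not called (adjusted p 0.0588). Without 2.6Null it was 2.71 (SE 0.34) and called (adjusted p 0.00222).

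Between KO and Zfp281-present ESCs the Id1 difference was 1.81 (SE 1.12, adjusted p 0.396). It was −0.50 without the 2.6Null library and 4.11 without the 3.34Null line (adjusted p 0.0106), so the KO lines again did not move together. In 2.6Null as ESCs, Bmp4 was 6.65-fold and Id1 10.4-fold the highest of the other 3 ESC libraries, while Id2 and Id3 were 1.72-fold and 1.91-fold. The XEN marker sum given above was also highest in this library, and its part in these values was not tested.

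At cXENp3 Id1 had 18.6 FPKM in 3WT, 14.1 in 3.34Null-Rescue, 28.8 in 3.34Null and 50.1 in 2.6Null. The KO libraries were the higher ones, but the difference of 1.18 (95% interval −1.32 to 3.68) was not called (adjusted p 0.424). The step from cXENp1 was −2.64 in Zfp281-present lines (adjusted p 0.154) and −2.02 in KO lines (adjusted p 0.229), with the same sign in all 4 lines and no call. In XENB1 and XEN5 Id1 was at 64.1 and 68.7 FPKM. They lay above 3 of the 4 ESC libraries, and the XEN difference of 0.81 (adjusted p 0.623) was 1.88 without the ESC library of 2.6Null and was then called (SE 0.44, adjusted p 0.0103). With the prefix as a term it turned to −2.40 and was called lower (adjusted p 0.0206). Apart from that library, the order ran from overlapping ESC and cXENp3 levels through XEN lines to cXENp1.

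The summed level of the 3 ID genes was highest at cXENp1 in each line, though 2.6Null was already high as ESCs. It was 21.1 to 50.4 FPKM in 3 ESC libraries and 387.2 FPKM in 2.6Null, 379.4 to 539.0 FPKM at cXENp1, 44.4 and 54.8 FPKM in 3WT and 3.34Null-Rescue at cXENp3, and 85.5 and 133.9 FPKM in 3.34Null and 2.6Null. XENB1 and XEN5 had 166.3 and 209.0 FPKM. Id1 made up 52.1% or more of the sum in each ESC library and 31.1% or less at cXENp1, where Id3 made up 28.9% to 58.2%. Over the 14 libraries Pearson's r of log2 levels was 0.859 between Id2 and Id3 and 0.819 between Id3 and Smad6, and 0.159, 0.288 and 0.347 between Bmp2 and Id1, Id2 and Id3. These values describe libraries that share lines and stages.

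**Figure D4:**
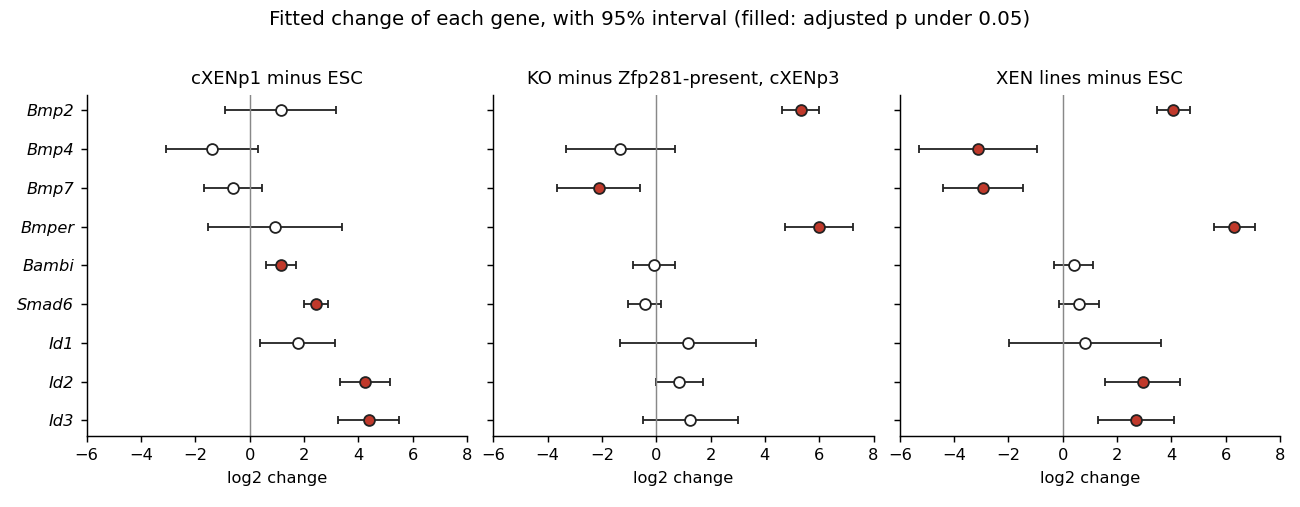
Fitted log2 change of each gene (points) with its 95% interval (bars) in 3 comparisons, as differences on the log2(FPKM + 1) scale (horizontal axis); filled points have an adjusted p under 0.05. At cXENp1 the called genes are Id2, Id3, Smad6 and Bambi; between KO and Zfp281-present lines at cXENp3 they are Bmp2, Bmper and Bmp7; the value of Bmp7 in XEN lines rests on levels listed at 0 and so on the pseudocount.

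The other BMP pathway genes were read from a list of 57, of which 46 passed the filter in the course and 39 in the comparison of XEN lines with ESCs. At cXENp1 against ESC 18 of 46 were called higher (14.7% of all genes) and 3 lower (13.8%), with a median log2 change of 0.84 against 0.00 over all genes. The targets Msx1 and Msx2, homeobox genes that respond to BMP, rose by 4.90 (SE 0.38, adjusted p 1.31e-04) and 3.07 (SE 0.46, adjusted p 0.00214). Msx1 (XLOC_015813) went from at most 0.751 FPKM in ESCs to 21.8 to 86.1 FPKM, and Msx2 (XLOC_005463) from at most 0.789 FPKM to 6.75 to 15.3 FPKM. Bmp1, a protease that processes procollagen and the BMP antagonist chordin, rose by 3.23 (SE 0.68, adjusted p 0.00891). Id4, the fourth ID gene, fell by 1.10 (SE 0.28, adjusted p 0.0195), unlike Id2 and Id3. Tob1, an antiproliferative protein that restrains BMP SMADs, fell by 1.66 (SE 0.39, adjusted p 0.0142), and the type I receptor gene Acvrl1 fell by 0.96 (SE 0.21, adjusted p 0.0109).

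Between KO and Zfp281-present lines, 0 of the 46 were called in ESCs (1.97% of all genes), with 6 at an unadjusted p under 0.05 in limma, where 20.9% of all genes were. At cXENp1, 1 was called (0.485% of all genes): Rgma, a BMP co-receptor, had 13.4 and 13.0 FPKM in 3WT and 3.34Null-Rescue against 3.33 and 2.47 FPKM in 3.34Null and 2.6Null (log2 −1.88, SE 0.21, adjusted p 0.00703). At cXENp3, 16 were called higher (22.9% of all genes) and 2 lower (19%), among them 4 of 7 ligand genes tested, all higher, and 3 of 7 targets, all higher. The lower 2 were Rgma (log2 −0.61, SE 0.21, adjusted p 0.0434) and Ski, a SMAD co-repressor (log2 −0.77, SE 0.18, adjusted p 0.0076). From cXENp1 to cXENp3, 10 were called higher (12.5% of all genes) and 5 lower (8.8%) in KO lines. In Zfp281-present lines 0 were called higher (4.91%) and 8 lower (6.01%). Msx1 fell in both, by 3.40 (SE 0.51, adjusted p 0.00164) and by 4.40 (SE 0.51, adjusted p 0.00111). The difference of the changes was called for 9 genes, all more positive in KO (7.19% of all genes), and the most changed were Fst (6.49, SE 0.59, adjusted p 4.70e-04), Nog (4.17, SE 0.48, adjusted p 0.00186) and Crim1 (3.91, SE 0.98, adjusted p 0.0336).

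In XEN lines against ESCs 16 of 39 were called higher (22.2% of all genes) and 4 lower (19.7%), and 7 of the 10 extracellular modulators tested were called, all higher. Nog (XLOC_003706) had 225.0 FPKM in XENB1 and 80.3 in XEN5, against at most 0.247 FPKM in ESCs (log2 6.87, SE 0.40, adjusted p 2.23e-05). Nog too was tested there only because the XEN libraries reached 1 FPKM. In 3.34Null and 2.6Null at cXENp3 Nog had 41.6 and 73.2 FPKM. Smad7, the other inhibitory SMAD gene, was lower in XEN lines by a log2 difference of −0.93 (SE 0.30, adjusted p 0.0374), with 18.0 and 14.2 FPKM against 23.1 to 46.4 FPKM. KO lines at cXENp3 against XEN lines gave 0 of 46 called, with 9 at an unadjusted p under 0.05 in limma, where 20.5% of all genes were.

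Genes whose log2 level most resembled each of the 9 over the 14 libraries were found by Pearson's r among 13386 genes. Bmper was followed most closely by Entpd7 (0.993) and Csgalnact1 (0.987), and Bmp2 by Sel1l (0.989) and Nploc4 (0.986). Bmp7 was followed by Itpr1 (0.979) and Clip4 (0.972), with 2 of its 14 values listed at 0, and Bmp4 by Celf4 (0.917) and Bbs2 (0.914). Id2 was followed by 9530082P21Rik (0.958) and Nudt10 (0.946), Id3 by Rnf128 (0.962) and Pdlim7 (0.959), and Id1 by Nckap1l (0.887) and Tnfaip8l2 (0.879). Smad6 was followed by Hoxa5 (0.964) and Gpr153 (0.959), and Bambi by Rasa1 (0.905) and Hnrnph1 (0.889). Id1 and Bambi had the least close neighbours of the 9.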

How the data were processed

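The authors deposited 1 table of normalized values for the 14 libraries, read here as FPKM: the labels do not name the unit, and the values are not whole, never negative and differ in their sums. The submitters' processing notes name STAR 2.5.3, Cufflinks 2.1.1 and mm9, without roles. Depth is unknown. Coordinates are those of the table, counted from 1. The 9 genes and all gene lists were chosen with earlier results of these data known.

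Values were analysed as log2(FPKM + 1), for genes where at least 2 fitted libraries reached 1 FPKM, with limma 3.58.1 (lmFit, eBayes with trend) in R 4.3.3, over 9 comparisons each adjusted over all its genes. For cXENp1 against ESC, line was a block in a fit of the 12 course libraries, since libraries of a line share their source. The KO comparisons and the steps from cXENp1 to cXENp3 used 6 groups of 2 lines with a shared spread, XEN against ESC used 6 libraries, and KO against XEN used all 14. The fits were tried on simulated libraries drawn independently with no line effect, whereas the real libraries share lines. For a true log2 change of 2, the share of changed genes called was lowest for the difference of changes, at 42.0%. It was highest, at 81.5%, for the step from cXENp1 to cXENp3 in KO.

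Genes named beside the 9 are Zfp281 and some of 57 other pathway genes in 6 roles. Of the latter, up to 3 called higher and 3 called lower per comparison with the largest change are named. Bmp6 was added for the ligand sum after its values were seen. Likeness names 2 genes each. Alternatives were a pseudocount of 0.1, no filter, a mean of at least 5 FPKM, quantile normalization, eBayes without trend, the description prefix as a term, line blocks and leaving out each line or library. Leaving out the 2.6Null ESC library alone in the KO comparison was added after seeing the data. 1 further pathway gene is not reported here.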

Additional observations from a re-analysis of the deposited data

Results flagged for a closer look

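The step from cXENp1 to cXENp3 differed between KO and Zfp281-present lines in 2 of the 9 genes. The change in KO minus the change in the Zfp281-present lines was 4.405 on the log2 scale in Bmp2 and 5.665 in Bmper, both called in limma.

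Among the 4 ESC libraries, that of 2.6Null lay far from the others in 3 genes. It was the highest in Bmp2, where its gap to the next library was 0.880 of the range on the log2 scale, and in Bmper, where the gap was 0.912. It was the lowest in Bmp7, where the gap was 0.884. All 3 gaps passed the 95% critical value of Dixon's test for 4 values, which chance passes in about 1 in 20 groups. The share of all genes that pass it in these libraries was not computed, so the count is not read as a trait of these genes. In Bmp2 and Bmper all ESC values were under 1 FPKM. The gaps of 2.6Null in Bmp4 and Id1, at 0.730 and 0.682, did not pass.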

How the results depend on the processing

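Members called, as reported and over the fits that leave out 1 line or library, were 6 and 0 to 7 for XEN against ESC (0 without XEN5, where Bmp2 and Bmper no longer passed the filter), 4 and 3 to 5 for cXENp1 against ESC, 0 and 0 to 2 for KO in ESCs, 3 and 2 to 4 for KO at cXENp3, 4 and 2 to 4 for the later step in KO, 3 and 1 to 4 for it in Zfp281-present lines, 2 and 0 to 2 for the difference of changes, and 1 and 0 to 1 for KO against XEN. With the prefix as a term, 7 were called for the later step in KO. For KO against XEN 0 were called under the pseudocount of 0.1, no filter, the mean of at least 5 FPKM and quantile normalization. The prefix term leaves 2.6Null to set the ESC level and turned Id1 to −2.40 in XEN lines (adjusted p 0.0206) and to −0.77 at cXENp1. In the KO comparison of ESCs it gave −0.63 for Bmp4 and −0.50 for Id1, as did leaving out 2.6Null or its ESC library, and the fits that leave out a line ranged from −0.63 to 3.01 and from −0.50 to 4.11. Line as a replicate block gave 6 members called for the later step in KO, adding Bmp7 (−1.81) and Id3 (−2.31), and changed no other member's call. Quantile normalization moved the median of all genes by −0.10 in XEN lines and −0.12 in KO at cXENp3. It moved the share of calls that were higher from 58.6% to 48.2% for the later step in KO, from 75% to 64.2% for KO at cXENp1, from 62.8% to 53.6% for the difference of changes, from 54.6% to 45.2% for KO at cXENp3, from 53% to 47% for XEN against ESC and from 64.1% to 52.4% for KO against XEN. Over all genes, the calls as reported and their lowest and highest over all settings were 3760, 439 and 3943 at cXENp1, 260, 1 and 1993 for KO in ESCs, 64, 4 and 638 for KO at cXENp1, 5528, 1057 and 6150 for KO at cXENp3, 2806, 1462 and 3317 for the later step in KO, 1441, 54 and 2594 for it in Zfp281-present lines, 1510, 5 and 2362 for the difference of changes, 551, 212 and 731 for KO against XEN, and 5181, 2098 and 6235 for XEN against ESC. Unless stated, the cause of a change was not tested. With 1 or 2 lines a group and no read counts, low levels such as Bmp2 and Bmper in ESCs have unknown precision, and the effect of Zfp281 and other differences between the lines cannot be told apart.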
